A study of Mus musculus with 2 samples.

Results

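The cornified envelope is the protein and lipid shell that replaces the plasma membrane of dying keratinocytes in skin and other squamous epithelia. Its precursors, among them involucrin, loricrin and the small proline-rich proteins, are joined to each other by transglutaminases on a scaffold of plakins, and many of their genes lie side by side in the epidermal differentiation complex. The urothelium of the ureter normally forms no cornified layer, and a switch of urothelium to such a squamous programme is known as squamous metaplasia. The 39 genes examined here were chosen for these roles, and 38 of them had at least 1 probe among the 29967 genes represented on the arrays. Flg, without a probe of that name, was not analysed for expression here.

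The RNAs came from pools of sex-sorted ureters of NMRI mouse embryos at E16.5, compared on 2 dual-colour arrays that each held a Pparg-cKO and a control pool. Mutants were Pax2-cre/+; Pparg(fl/fl), in which a cre active in the nephric duct, the ureteric epithelium and the collecting ducts removes the loxP-flanked exons 2 and 3 of Pparg, and controls are labelled Pparg(fl/?) and were littermates without cre. Array 1 (replicate 1) held female and array 2 (replicate 2) male pools, and the dyes were exchanged between the arrays, so that dye and sex cannot be told apart. Each pool was whole ureter with its mesenchyme and smooth muscle, and was read once.

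RNA A stands for the sample that carried AlexaFluor647 (red) in the female and AlexaFluor555 (green) in the male hybridisation, and RNA B for its partner. Every ratio is log2 of RNA A over RNA B, and pairs of signals name RNA A first. By the labels RNA A is the control. The study's text describes genes that are dimmer in RNA A here, such as Krt20 and the uroplakins, as reduced in the mutant. The direction by the labels thus opposes the study's. Its in situ hybridisation, made apart from the arrays, found less Sptssb, Fa2h, Upk3b, Krt20, Upk1a and Ivl RNA in mutant ureters. All of these were dimmer in RNA A on both arrays, with mean log2 ratios from −1.936 (Sptssb) to −1.015 (Ivl). Krt4, Krt6a and Krt6b, which the study listed as increased in the mutant from arrays that include the present ones, were brighter in RNA A. The authors' signed fold changes, titled Pparg-cKO vs control, also followed RNA A over RNA B (r = 0.997). Both restate the authors' own reading of the dyes, and only the in situ hybridisation is separate from it. By that hybridisation and the authors' reading RNA A would be the mutant, against the labels. Values are therefore given by RNA and not by genotype. Pparg itself, the deleted gene, read 11295 for RNA A against 7429.8 for RNA B in female pools and 12888 against 7872 in male pools. The log2 ratio averaged 0.66 ± 0.08 (SD over n = 2 arrays; limma adjusted p = 0.614). Its probe lies at chr6:115440213-115440272 (mm9), and whether that is within the removed exons was not analysed here, so it does not settle the direction.

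Of the 38 genes, 2 passed the filter used for the main count, which asked for 1.5-fold or more, the same direction in female and male pools, and 100 or more signal units in whichever RNA was brighter. Both, Ivl and Sprr1a, were brighter in RNA B, where 0.23% of all genes passed (69 of 29967). In the other direction 0 members and 0.157% of all genes passed (47 of 29967). A moderated test with limma, adjusted over the 21414 genes of which 1 RNA or both were well above background in female and male pools alike, included 29 of the members and called 0 of them in either direction at an adjusted p of 0.05. Over all genes its calls were 0.107% in favour of RNA A and 0.182% in favour of RNA B. At an unadjusted p under 0.05 there were 6 members, 2 brighter in RNA A (Scel and Tgm1) and 4 in RNA B (Ivl, Sprr1a, Rptn and Sprr2f), beside 3.78% of all tested genes. With an intensity trend in limma's variance prior the count of members called was again 0. With 2 arrays there is 1 residual degree of freedom per gene, and p-values measure the spread between these arrays only.

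Over the 29 tested members the ratios showed no common direction. The median of their mean log2 ratios was 0.03, against 0.01 over all tested genes. Of the 29, 8 favoured RNA A on both arrays, 6 favoured RNA B on both, and 15 had opposite signs on the arrays. Among all tested genes 21.6% favoured RNA A on both and 17.4% RNA B. In 20 of the 29 members neither array's ratio reached 1.5-fold. Signals of whole tissue do not separate fewer cells of a type from less RNA per cell.

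**Figure D1:**
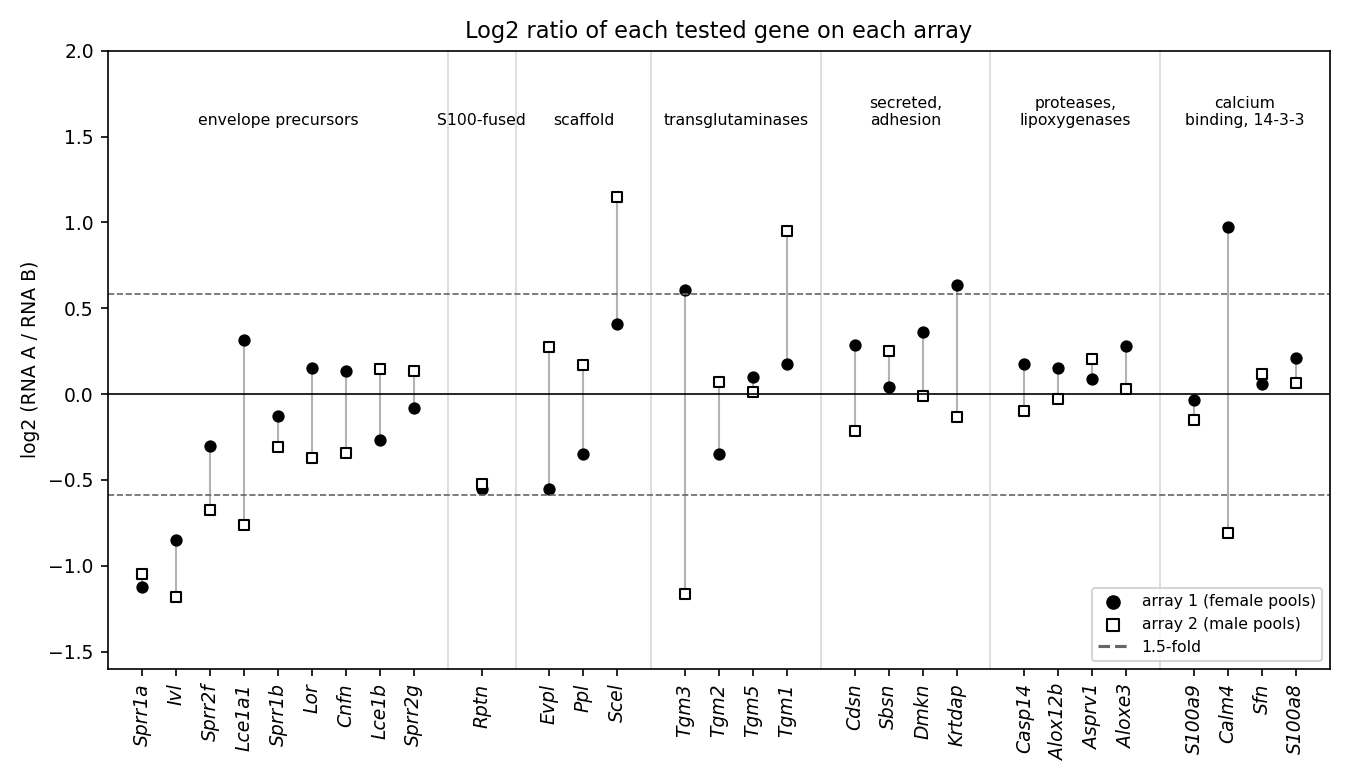
Log2 ratio of RNA A over RNA B (y axis) for each of the 29 tested genes (x axis, grouped by role), with the filled circle for array 1, the open square for array 2 and dashed lines at 1.5-fold. Sprr1a and Ivl lie below the lower line on both arrays, while Tgm3 and Calm4 lie beyond 1.5-fold on opposite sides.

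Involucrin, encoded by Ivl, is an early glutamine-rich precursor that transglutaminases fix beneath the membrane. The study's in situ hybridisation placed strong Ivl signal in superficial and intermediate cells of the control ureter, with lower levels in the mutant. On the arrays Ivl read 214.8 for RNA A against 386.4 for RNA B in female pools and 224.2 against 509.1 in male pools. Both RNA B pools were brighter than both RNA A pools. The share of all genes with such a separation was not counted, here or for Sprr1a. The log2 ratios were −0.85 and −1.18, a mean of −1.02 ± 0.24 (SD, n = 2), or 2.02-fold, with a limma adjusted p of 0.145. Single spots ranged from −0.96 to −0.74 on array 1 (3 spots) and from −1.26 to −1.05 on array 2 (4 spots). A second probe for Ivl had log2 ratios of −0.54 and −1.13, the same direction on both arrays but below 1.5-fold on array 1.

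The pair of Ivl probes is printed because they gave ratios of different size on array 1. They lie next to each other at chr3:92375367-92375426 and chr3:92375498-92375557 (mm9), and the files name Ivl as their gene.
Ivl probe used: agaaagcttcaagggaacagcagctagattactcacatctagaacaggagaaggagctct
Ivl second probe: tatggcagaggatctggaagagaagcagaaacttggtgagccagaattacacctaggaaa

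SPRR1A, a small proline-rich protein that cross-bridges other precursors, was the other member past the filter. Sprr1a read 10409 for RNA A against 22675 for RNA B in female pools and 13224 against 27378 in male pools. Again both RNA B pools were brighter than both RNA A pools. The log2 ratios of −1.12 and −1.05 were nearly equal, with a mean of −1.09 ± 0.05 (SD, n = 2), or 2.12-fold, and a limma adjusted p of 0.0983. At a 2-fold filter Sprr1a passed and Ivl did not.

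**Figure D2:**
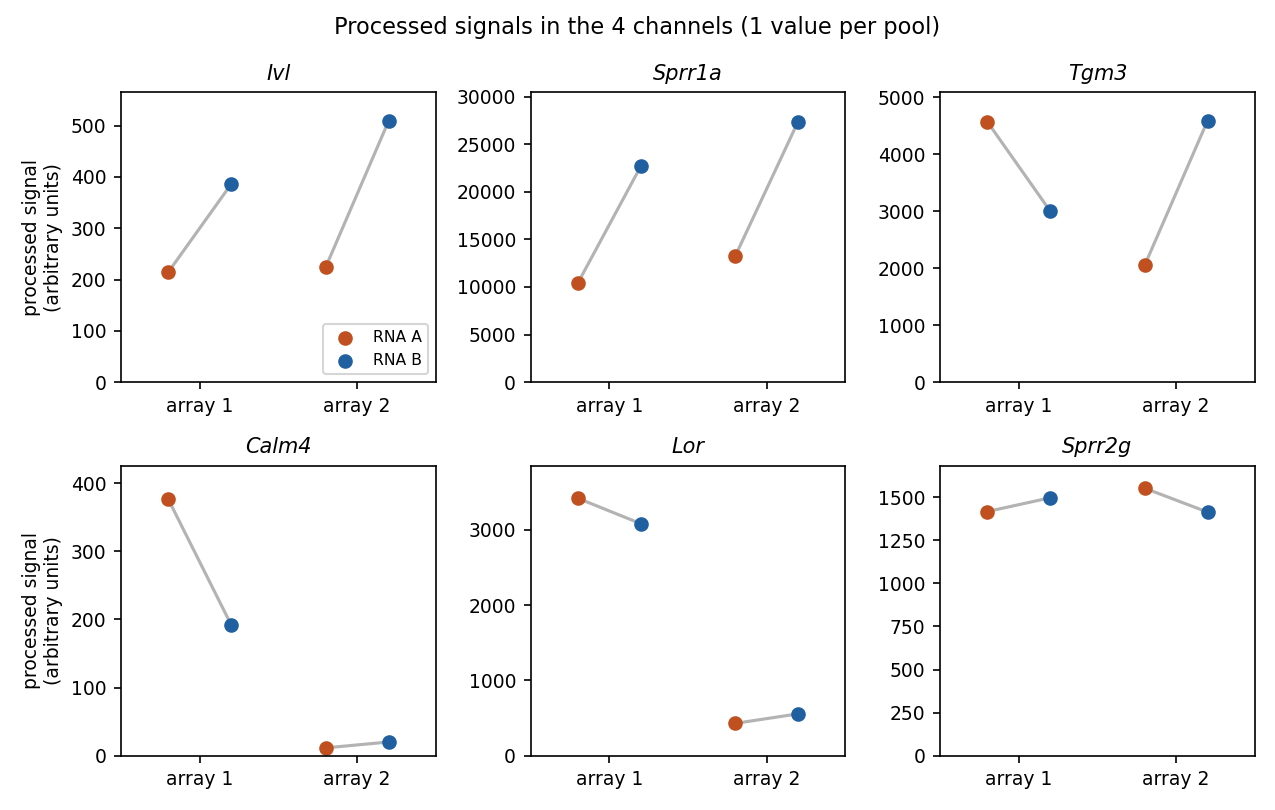
Processed signal (y axis, arbitrary units, each panel with its own scale from 0) of 6 genes in RNA A and RNA B on array 1 and array 2, 1 point per pool, with lines joining the pools of an array. Ivl and Sprr1a are higher in RNA B on each array, Tgm3 and Calm4 change direction between arrays, Lor and Calm4 are brighter on array 1 in both RNAs, and Sprr2g is nearly level.

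The 250 bases before the gene start of Ivl and Sprr1a are shown because these members differed in the same direction and lie in the same gene cluster on chromosome 3. In the RefSeq windows (GRCm38.p6, minus strand), Ivl is at chr3:92573736-92573985 and Sprr1a at chr3:92485882-92486131. Capitals mark matches on either strand to TGANTCA, the form bound by AP-1 factors, and to the TATA sequence TATAAA.
Ivl promoter: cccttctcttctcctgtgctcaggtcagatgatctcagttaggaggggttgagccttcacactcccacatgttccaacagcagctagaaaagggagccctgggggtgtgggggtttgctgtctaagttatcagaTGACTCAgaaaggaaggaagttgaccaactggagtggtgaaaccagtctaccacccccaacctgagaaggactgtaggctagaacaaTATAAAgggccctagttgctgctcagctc
Sprr1a promoter: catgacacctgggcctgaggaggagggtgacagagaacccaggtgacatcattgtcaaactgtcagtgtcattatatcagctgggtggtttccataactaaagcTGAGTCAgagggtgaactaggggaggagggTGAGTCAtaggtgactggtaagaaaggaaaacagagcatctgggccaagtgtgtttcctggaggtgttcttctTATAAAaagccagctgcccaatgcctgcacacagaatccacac

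In Ivl the TGANTCA match began 116 bases before the gene start and the TATAAA match 29 bases before it. Sprr1a held TGANTCA matches that began 146 and 116 bases before the start and a TATAAA match at 43 bases. A promoter window of 300 bases was given for 34 of the 39 genes. TGANTCA was in 16 of these 34 windows, against 7.81% of all 32851 windows, and TATAAA in 17 of 34, against 13.6%. Sprr1a, Sprr1b, Sprr2b, Sprr2d, Sprr2e, Sprr2f and Sprr2h had both motifs, as did Flg, Ivl, Krtdap, Lor and Rptn. The Sprr genes are related genes of 1 cluster, so their windows are not separate instances. The direct repeat AGGTCANAGGTCA, the textbook form of the element that PPAR and RXR bind, was in 0 of the 34 and in 0.0396% of all windows. A match describes letters only, and members that did not pass the filter carried the AP-1 letters too, among them Lor, Sprr1b, Sprr2f, Dmkn and Sbsn.

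The other small proline-rich genes did not share the 1.5-fold difference of Sprr1a. Sprr1b, its nearest relative, read 105.8 for RNA A against 115.5 for RNA B in female pools and 10.66 against 13.2 in male pools, a mean log2 ratio of −0.22 ± 0.13. Sprr2f read 109.7 against 135.5 in female and 94.6 against 150.8 in male pools, a mean of −0.49 ± 0.26 with an unadjusted limma p of 0.0433 and an adjusted p of 1. RNA B was thus brighter for both on both arrays, below 1.5-fold on at least 1 of them. Sprr2g read 1417 against 1497 in female and 1553 against 1414 in male pools, a mean of 0.03 ± 0.15. Sprr3 had 14.47 and 14.4 on array 1, and on array 2 its signals of 3.43 and 3.79 were not well above background. Sprr2b and Sprr2e were not well above background in any pool, and Sprr2d, Sprr2h and Sprr4 were so in 1 pool each. In 60-base probes, no run of 20 bases was shared between a member's probe and a probe of another gene, but paralogues without such a run may still bind the same probe.

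Loricrin, the glycine-rich bulk protein of the epidermal envelope, showed no stable difference between the RNAs. Lor read 3418 for RNA A against 3081 for RNA B in female pools and 428.6 against 555.1 in male pools, log2 ratios of 0.15 and −0.37. Cornifelin, a further envelope component encoded by Cnfn, read 161.7 against 147.5 in female and 31.0 against 39.3 in male pools, log2 ratios of 0.13 and −0.34. In both genes the arrays differed in sign, and both pools of array 1 were above both of array 2. The late cornified envelope gene Lce1a1 read 162.2 against 130.6 in female and 41.5 against 70.3 in male pools, log2 ratios of 0.31 and −0.76. Lce1b read 193.3 against 232.8 in female and 186.5 against 168.6 in male pools, log2 ratios of −0.27 and 0.15. Lce3a read between 2.85 and 6.47 and was well above background in 2 of the 4 pools.

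The S100-fused genes encode long proteins that bundle keratin or join the envelope. Repetin, encoded by Rptn, read 7.54 for RNA A against 11.1 for RNA B in female pools and 10.9 against 15.7 in male pools. RNA B was brighter on both arrays, with a mean log2 ratio of −0.54 ± 0.02 and a limma adjusted p of 0.986, at signals close to background. Hrnr, which encodes hornerin, had 54.1 and 25.1 on array 1, while on array 2 neither its 0.861 nor its 2.12 was well above background. Flg2 was not well above background in any pool.

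Periplakin and envoplakin are the plakins on which the envelope is assembled. Ppl read 1006 for RNA A against 1282 for RNA B in female pools and 1371 against 1218 in male pools. Evpl read 788.5 against 1156 in female and 1431 against 1182 in male pools. For both plakins RNA B was brighter on array 1 and RNA A on array 2, with mean log2 ratios of −0.09 ± 0.37 and −0.14 ± 0.59. Sciellin, a precursor of the envelope encoded by Scel, read 50.1 against 37.7 in female and 37.3 against 16.8 in male pools, brighter in RNA A on both arrays. Its mean log2 ratio of 0.78 ± 0.52 was the highest among the tested members, below 1.5-fold on array 1 and with a limma adjusted p of 0.614.

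Among the transglutaminases, which form the crosslinks, no gene passed the filter in a common direction. Tgm1, the membrane-bound keratinocyte enzyme, read 49.2 for RNA A against 43.6 for RNA B in female pools and 78.4 against 40.6 in male pools. The log2 ratios of Tgm1 were thus 0.17 and 0.95, with an unadjusted p of 0.043 and an adjusted p of 1. Tgm2, the broadly expressed tissue enzyme, read 3623 against 4621 in female and 5283 against 5024 in male pools, a mean of −0.14 ± 0.30. Tgm5 read 449.7 against 419.6 in female and 433.1 against 429.7 in male pools, so that all 4 pools were close, with a mean of 0.06 ± 0.06. Tgm3, the enzyme of late differentiation and hair, read 4569 against 3001 in female and 2049 against 4587 in male pools. Its log2 ratios of 0.61 and −1.16 were beyond 1.5-fold in opposite directions, as in 0.43% of all genes (129 of 29967). The other Tgm3 probe had signals between 5.17 and 6.49, with log2 ratios of 0.29 and −0.05.

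The adhesion and secreted proteins include corneodesmosin, which holds corneocytes together. Cdsn read 22.7 for RNA A against 18.7 for RNA B in female pools and 17.0 against 19.8 in male pools. Suprabasin, encoded by Sbsn, read 320.3 against 311.7 in female and 274.5 against 230.6 in male pools. Its mean log2 ratio was 0.15 ± 0.15, in favour of RNA A on both arrays and within 1.5-fold. Krtdap, which marks differentiating keratinocytes, read 903.6 against 581.1 in female and 607.4 against 667.0 in male pools, log2 ratios of 0.64 and −0.13. Dermokine, encoded by Dmkn and secreted by suprabasal cells, read 347.2 against 269.8 in female and 78.8 against 79.4 in male pools, log2 ratios of 0.36 and −0.01.

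The enzymes that process filaggrin or the lipid envelope were measured at low signals. Casp14, a protease that cleaves filaggrin, read 58.5 for RNA A against 51.8 for RNA B in female pools and 32.3 against 34.5 in male pools. Asprv1, a further filaggrin-processing protease, read 93.1 against 87.4 in female and 28.5 against 24.7 in male pools. The log2 ratios of Casp14 and Asprv1 had means of 0.04 ± 0.19 and 0.15 ± 0.08. The lipoxygenase Alox12b read 38.9 against 35.0 in female and 32.8 against 33.4 in male pools. Aloxe3, which acts next in the same pathway, read 52.7 against 43.4 in female and 49.7 against 48.7 in male pools. In these 4 genes neither array reached 1.5-fold.

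The calcium-binding and 14-3-3 members were mostly level. S100A8 and S100A9 form calprotectin, made by stressed keratinocytes and by neutrophils. S100a8 read 645.6 for RNA A against 557.3 for RNA B in female pools and 530.0 against 507.5 in male pools. S100a9 read 1185 against 1212 in female and 857.9 against 952.3 in male pools. Their mean log2 ratios were 0.14 ± 0.11 and −0.09 ± 0.08. All 12 genes of the neutrophil and myeloid list had probes, with a summed signal between 30818 and 36536 over the 4 pools, and 11 were tested and 0 called, with Mpo, Ngp and Camp well above background in every pool and Cxcr2 in none. The part of these cells in the S100a8 and S100a9 signals was not tested. Sfn, the 14-3-3 protein of squamous epithelia, read 958.0 against 919.5 in female and 1143 against 1054 in male pools, a mean of 0.09 ± 0.04.

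Calm4, a calmodulin-like protein of differentiating keratinocytes, read 376.1 for RNA A against 191.7 for RNA B in female pools and 11.5 against 20.1 in male pools. Its log2 ratios of 0.97 and −0.81 pointed in opposite directions. Opposite directions of at least 1.5-fold were found for 2 tested members, Calm4 and Tgm3, and for 0.901% of all tested genes. In both genes the red dye was the brighter on each array. Over the tested members, the red dye was brighter on both arrays for 10 and the green dye for 5, beside 28.4% and 32.6% of all tested genes. Since dye and sex change together, a dye effect and a difference between female and male pools cannot be told apart for such genes.

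**Figure D3:**
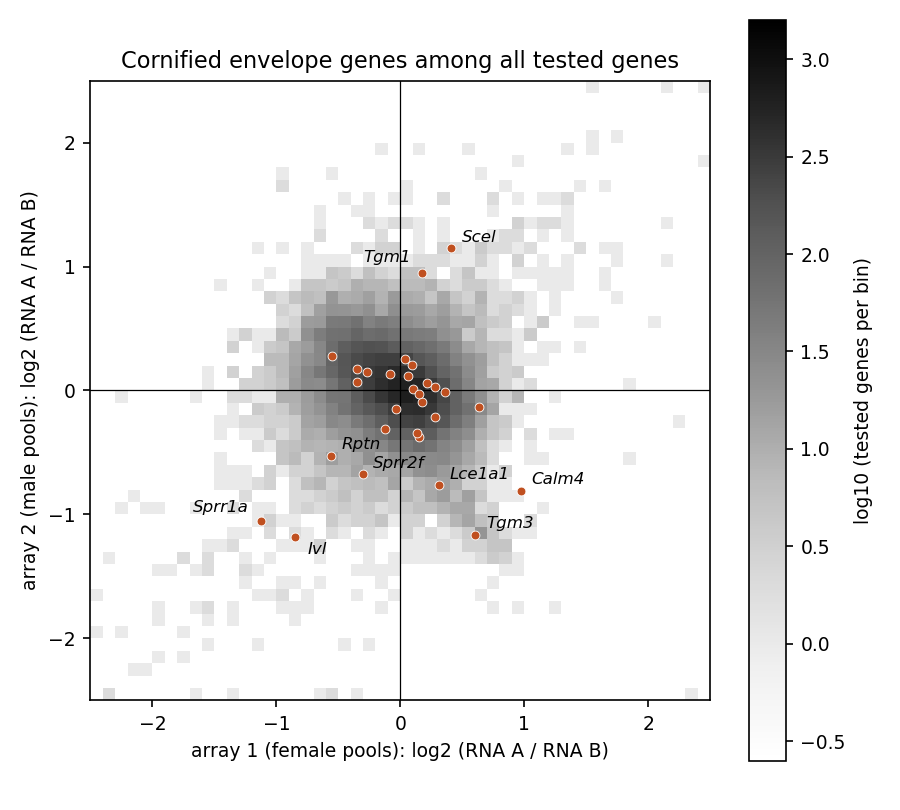
Log2 ratio of RNA A over RNA B on array 1 (x axis) and array 2 (y axis), with grey squares for the number of tested genes per bin (log10 scale) and orange points for the 29 tested members. Ivl and Sprr1a lie in the lower left, where both arrays have RNA B brighter, Tgm3 and Calm4 in the lower right, and Scel and Tgm1 at the top.

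For several members the difference between the arrays was larger than that between the RNAs. Of 28 members well above background in both RNAs on both arrays, 6 had both signals of array 1 at least 2-fold above both signals of array 2, and 0 had the reverse. Among all 20600 genes measured in this way, 0.189% were brighter on array 1 by that rule (39 genes) and 0.0777% on array 2 (16 genes). The 6 members were Lor, Cnfn, Dmkn, Sprr1b, Calm4 and Asprv1. The mean level on array 1 was 6.65-fold that on array 2 for Lor, 9.31-fold for Sprr1b and 17.7-fold for Calm4. It was 4.42-fold for Cnfn, 3.87-fold for Dmkn and 3.40-fold for Asprv1. A wider set of 31 members and 21499 genes asked for both RNAs well above background on at least 1 array. By that rule 8 members, 0.344% of genes on array 1 and 0.442% on array 2 passed, with Hrnr and Sprr3 added. Both were measured on array 1 only, where they are the brighter, so the count of 8 is a description. Against the lowest signal of a probe well above background in each channel, the level of Hrnr on array 1 was at least 12.8-fold in RNA A and 2.52-fold in RNA B. For Sprr3 these bounds were 3.42-fold and 1.45-fold, so that 2-fold in RNA B was not shown. The second Dmkn probe showed the same pattern, with 342.5 and 245.7 on array 1 and 71.9 and 67.6 on array 2. For Alox12b, not among the 6, the probes differed. Its second probe met the 2-fold rule, with 46.58 and 37.25 on array 1 and 16.45 and 13.85 on array 2. The Alox12b probe used read 38.91 and 34.99 on array 1 and 32.76 and 33.37 on array 2. Whether Alox12b counts as brighter on array 1 thus depends on the probe.

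The difference did not extend to every member. Ivl and Sprr1a were slightly dimmer on array 1, with mean log2 levels of −0.23 and −0.31 relative to array 2. Ppl, Evpl, Tgm2, Tgm5, Sprr2f, Sprr2g, Sfn, S100a8 and Sbsn had mean levels within 1.5-fold between the arrays. The median over the 28 members was 0.20 on the log2 scale, against −0.08 over the 20600 genes, whose 5th and 95th percentiles were −0.39 and 0.27.

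Array 1 held the female and array 2 the male pools, and 2 checks of those labels can be read from the levels. Xist, the non-coding RNA of the inactive X chromosome, read 1979.5 and 1651 in female and 3.06 and 2.43 in male pools. Of the 95 genes brighter on array 2 in the wider set, 90 lay on chromosome Y by the files' mm9 positions. Some epidermal markers were brighter on array 1 too. Of the 8 genes listed as markers of keratinised epidermis, 7 had probes and 6 were in the wider set, of which 3 met the 2-fold rule, namely Lor, itself a member, Krt1 and Krt77, whose signals on array 2 were not well above background. Krt10, Dsg1a and Dsc1 did not meet it, with mean levels on array 1 that were 1.53-fold, 1.91-fold and 1.52-fold those on array 2. The summed signal of the 7 was 7246 and 5935 in female and 2094 and 2217 in male pools, and without Lor it was 3828 and 2855 in female and 1666 and 1662 in male pools. Krt2 was well above background in 2 pools. Krt1, a keratin of suprabasal epidermis, read 1309.9 against 874.3 in female and 240.7 against 169.5 in male pools, and Krt10, its partner, read 2464 against 1934 in female and 1396 against 1464 in male pools. Their part in the result was not tested. Sex, array and the embryos pooled cannot be told apart, and the arrays were not normalised to each other, so no test was made of array 1 against array 2.

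**Figure D4:**
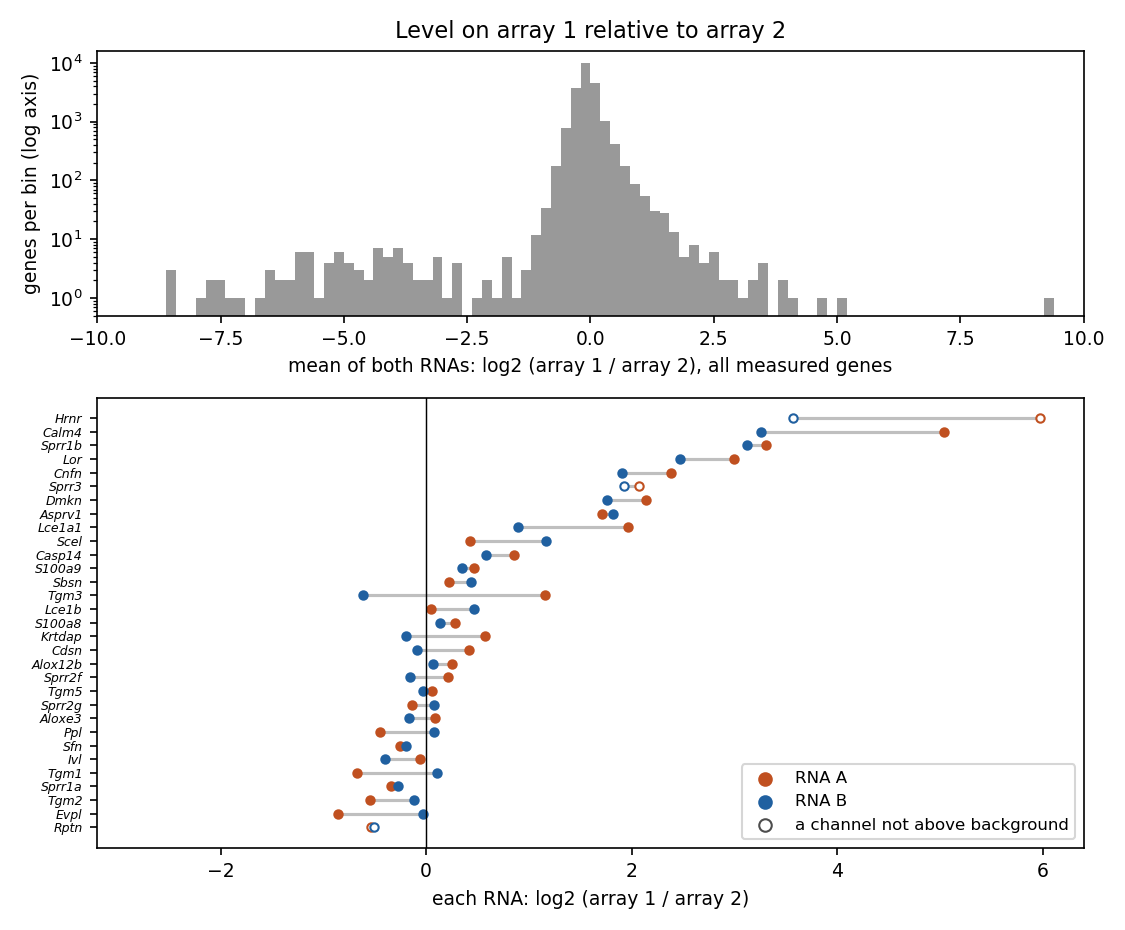
Upper panel, number of the 21499 genes (log axis) by the log2 level on array 1 over array 2, mean of both RNAs. Lower panel, the same log2 difference for each of 31 members in RNA A (orange) and RNA B (blue), with open circles for the 3 members that had a channel not well above background. Calm4, Sprr1b, Lor, Cnfn, Dmkn and Asprv1 lie beyond 2-fold in both RNAs, and the open circles of Hrnr and Sprr3 are not measured folds.

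By probe position, 20 of the 38 members lay on chromosome 3 between 90473778 and 93202723 (mm9), the interval of the epidermal differentiation complex. The median log2 ratio of the 11 tested members there was −0.22, and that of the 18 tested members elsewhere was 0.07. Both genes past the filter, Ivl and Sprr1a, were among the 11. Of the 6 members brighter on array 1, 2 lay in this interval, among 10 measured on both arrays, and 4 elsewhere, among 18. Of 44 other genes of the complex, 43 had probes, 32 were tested and 0 passed the filter in a common direction or were called by limma, with a median log2 ratio of 0.01.

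The programmes around the envelope were read from lists of known genes. Of 12 squamous keratins, 10 were tested, with a median log2 ratio of 0.51. Of these, 6 favoured RNA A on each array and 0 RNA B, beside 21.6% and 17.4% of all tested genes. The other 4, Krt10, Krt13, Krt16 and Krt80, had opposite signs on the arrays. Krt4 and Krt6a passed the filter and Krt6a and Krt6b were called by limma, all brighter in RNA A, opposite to Ivl and Sprr1a. Krt6b, a keratin of stressed and differentiating squamous epithelia, read 57.4 for RNA A against 17.2 for RNA B in female pools and 95.7 against 23.2 in male pools (mean log2 ratio 1.89 ± 0.22, adjusted p = 0.0134). Krt6a read 120.3 against 46.7 in female and 187.5 against 49.0 in male pools (mean 1.65 ± 0.40, adjusted p = 0.0298). Krt4, a keratin of internal squamous epithelia, read 162.3 against 80.8 in female and 180.1 against 69.6 in male pools (mean 1.19 ± 0.26, adjusted p = 0.0869). The pools of RNA A were above those of RNA B for these 3 keratins, without overlap. How many of all genes were separated in this way was not counted. In the study, immunofluorescence found KRT6 protein in the urothelium of neither genotype at the stages stained. Its RT-qPCR on cultured ureters could not detect Krt6b. Over 9 settings of the fit, limma called Krt6a in 3 and Krt6b in 2, with adjusted p-values up to 1.

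None of the 11 desmosome genes passed the filter in a common direction or was called by limma (8 tested, median log2 ratio 0.13). The same held for the 16 proteases and inhibitors of desquamation (10 tested, median −0.02) and for the 21 transcription factors of squamous differentiation (19 tested, median −0.09). Of 18 barrier lipid enzymes 13 were tested, and Fa2h and Sptssb passed the filter and were called, both brighter in RNA B. Fa2h, which hydroxylates fatty acids, read 163.9 for RNA A against 851.2 for RNA B in female pools and 274.0 against 716.0 in male pools (mean log2 ratio −1.88 ± 0.70, adjusted p = 0.032). Sptssb, a subunit of serine palmitoyltransferase, read 396.0 against 1316 in female and 400.8 against 1766 in male pools (mean −1.94 ± 0.29, adjusted p = 0.0134). Over the 9 settings both were called in 3, and both passed the filter under all 6 ways of computing the ratios. The study's in situ hybridisation placed Sptssb in superficial cells and Fa2h in superficial and intermediate cells of the control ureter.

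Superficial cell markers favoured RNA B, as Ivl and Sprr1a did, and other cell lists had no gene past the filter in a common direction or called by limma. All 6 superficial cell genes, the uroplakins and Krt20, favoured RNA B on each array, with a summed signal of 50739 and 49171 in RNA A and of 82481 and 86415 in RNA B. Of these, Upk1a, Upk3a, Upk3b and Krt20 passed the filter and Upk1a and Upk3b were called, in 1 and 3 of the 9 settings. Of 6 basal cell genes 4 favoured RNA A on each array and 0 RNA B, with a median log2 ratio of 0.33. Over all tested genes 21.6% favoured RNA A on both arrays and 17.4% RNA B. Of 8 smooth muscle and mesenchyme genes 6 favoured RNA B on each array, with a summed signal of 228747 and 246144 in RNA A and of 267897 and 286224 in RNA B. The 7 pan-epithelial genes had a summed signal of 61004 and 78100.4 in RNA A and of 89107 and 83460.1 in RNA B, and 2 favoured RNA B on each array and 0 RNA A. The 6 endothelial and the 6 red blood cell genes had median log2 ratios of 0.08 and 0.06. The part of these cells in the differences of Ivl and Sprr1a was not tested.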

How the data were processed

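RNA of pooled E16.5 ureters was hybridised to 2 dual-colour Agilent oligonucleotide arrays. Groups are those of the labels. For channel 2 they give a stage of 14.5 where titles and protocols give 16.5, and the latter was taken. Per the file headers and the submitters' processing notes, the deposited processed intensities come from Agilent Feature Extraction 10.7.3.1 and were background-subtracted and dye-normalised within each array. The log10 ratio that the files deposited for each spot served to check the dyes. Mean signals and local background intensities served for alternatives. The authors' deposited score is a signed fold change under sample titles that read Pparg-cKO vs control. It followed RNA A over RNA B on both arrays (r = 0.997) and served as an alternative.

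Control spots (17263 per array) and flagged spots (5705 and 5579 of 157716) were left out, 0 spots were saturated, and log2 processed signals were averaged per probe. The green channel was well above background in 80.3% and 80.4% of spots and the red in 70.4% and 70.5%, which limits dim genes. Of 39429 probes, 28750 were named through RefSeq, the rest as in the files. A gene was read from its probe with the highest mean signal, called well above background if a share of 0.5 or more of its spots was. limma 3.58.1 (R 4.3.3; intercept, eBayes, Benjamini-Hochberg) was fitted over all genes. The fit and the filter were tested on simulated data and recovered the changed genes, whose simulated ratio was larger than that of any member (smaller ratios were not simulated), while limma also called more unchanged genes than its nominal rate.

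Members, lists and tests were chosen with earlier results of these data known. Every member with a probe was to be described, with all 4 signals where well above background; of other genes Pparg, those of each list past the filter or limma (at most 8 a list) and defining markers of other cells were named. Krt10, Xist and genes in the closing section were chosen after their values were seen. Alternatives were other background corrections, normalisations, probe rules, filters, folds and leaving out each array. The comparison between arrays and its alternatives were added after the data were seen.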

Additional observations from a re-analysis of the deposited data

Results flagged for a closer look

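For 2 members the female and the male pools pointed in opposite directions by at least 1.5-fold. Tgm3 had log2 ratios of RNA A over RNA B of 0.607 on array 1 and −1.163 on array 2. The second Tgm3 probe, at signals between 5.17 and 6.49, had 0.285 and −0.05 and did not show this. Calm4 had 0.972 on array 1 and −0.808 on array 2, where its signals were 11.5 and 20.1. No test of this contrast was possible, so it was not tested: each array held 1 pair of pools, and dye and sex cannot be told apart.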

How the results depend on the processing

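Ivl and Sprr1a passed the filter as brighter in RNA B under each alternative normalisation, the deposited table, the mean of all probes and other intensity thresholds. At 2-fold the count brighter in RNA B was 1, and in RNA A it stayed 0. Leaving out an array moved the count in favour of RNA A between 0 (male pools) and 3 (female pools) and that in favour of RNA B between 4 (male) and 2 (female). Over the settings that keep both arrays the mean log2 ratio of Ivl ranged from −1.03 to −0.93 and that of Sprr1a from −1.12 to −1.09, and their limma adjusted p from 0.145 to 1 and from 0.0983 to 1 over 9 fits. limma called 0 members in every fit. Over all genes its calls for RNA A and RNA B were 23 and 39 as reported, 1 and 0 with normexp and loess, 1 and 0 with median centring, 15 and 34 with loess on the processed signals, 14 and 32 with the mean of all probes, 0 with the deposited table, 0 with an intensity trend and 0 without the filter on dim probes. With either RNA above background on each array, an alternative added after the data were seen, it called 1 and 0. The cause was not tested. The median of the members ranged from −0.03 to 0.10 when an array was left out. Rptn moved from −0.54 to −0.16 with normexp and loess and to −0.39 in the deposited table, at signals near background.

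In the wider set of members compared between the arrays, the same 8 passed after scaling each channel to its 75th percentile, 9 passed on background-subtracted mean signals of the same dye, 6 of 28 among genes above background in all 4 channels, and 4 passed at 4-fold. Each array holds both RNAs, so the ratio that limma was fitted to is itself the paired value. No further pairing was possible because the arrays form 1 group. Signals near background limit Rptn, Hrnr, Sprr3 and Lce3a.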

Other observations

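Beside the 6 members, 3 other genes of the lists were among the 39 that were well above background in all 4 pools and at least 2-fold brighter on array 1 in both RNAs: Krt1, Crct1 and Lce1m. Crct1, a gene of the epidermal differentiation complex, read 205.6 for RNA A against 168.8 for RNA B in female pools and 35.8 against 47.2 in male pools. Genes of skeletal muscle, chosen here after their values were seen, were in the same set. Myh3, the embryonic myosin heavy chain, read 394.1 against 576.4 in female and 92.3 against 100.95 in male pools. Myog, a regulator of muscle differentiation, read 89.0 against 116.7 in female and 33.8 against 31.7 in male pools. The stefin gene Stfa3 read 890.9 against 577.3 in female and 167.6 against 190.3 in male pools. Krt16 showed the pattern of Tgm3, at 6482 against 4172 in female and 2255 against 5699 in male pools.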
